A study of Raphanus raphanistrum and Isatis lusitanica and Arabidopsis thaliana with 13 samples.

Results

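Loci for which the wild radish gene set lists more than 1 transcript were examined in leaf RNA-seq of *Raphanus raphanistrum*. A locus was read from the transcript identifier by removing its last dot and number, so that TRr0L7c033885.1 and TRr0L7c033885.2 are 2 isoforms of TRr0L7c033885, and every locus left with at least 2 transcripts was kept. This gave 2095 of 43703 loci (4.79%), which hold 4456 of 46064 transcripts (9.67%). The other 41608 loci list a single transcript and were the background. No measured value was used in this choice.

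The study examined the histone demethylase gene *IBM1* across crucifers, and sequenced leaf RNA of *R*. *raphanistrum* and *Isatis lusitanica*, species whose genomes raised the question of a lost or truncated *IBM1* or *CMT3* gene, the second of which codes for a DNA methyltransferase. The *R*. *raphanistrum* samples form 1 group of 3 libraries, from untreated plants grown at 23 °C under 15 h of light, with no genotype given. No source used here says whether the libraries came from separate plants, so the spread between them may be technical. There is no contrast of conditions in this group, and the libraries were compared only with each other. The *I*. *lusitanica* table lists 41829 transcripts for 41829 gene models, hence no locus with several isoforms.

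An isoform is a distinct transcript of a gene, made by alternative splicing or by another start or end of transcription. In plants retention of introns and shifted splice sites are common kinds of alternative splicing, and the acceptor motif NAGNAG gives products that differ by a single codon. The isoforms of a gene share most of their sequence, so most short reads fit more than 1 of them. Kallisto, the program that made these tables, divides such reads between the isoforms by an iterative estimate, and the estimated counts need not be whole numbers. TPM, the abundance unit of the tables, is these counts divided by effective length and scaled to a sum of 1000000 per library, so TPM can be compared between isoforms of unequal length. The identifiers carry no gene name or annotated role in the sources used here, so the loci are named by identifier alone.

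The libraries hold 21181669, 16095778 and 21513838 estimated counts in replicates 1, 2 and 3. Loci with several isoforms took 5.67%, 4.11% and 5.08% of these counts and 4.63%, 2.97% and 3.68% of TPM. In replicate 2, 13 windows of 100 consecutive identifier numbers, with 1303 transcripts, took 19.5% of the counts, against 0.705% in replicate 1 and 5.24% in replicate 3. The windows were picked as high in replicate 2 against replicate 1, so the contrast between these 2 libraries follows from the choice. These windows contain only 2 of the loci with several isoforms, so few of the values below come from them. They still enter the total to which TPM is scaled in replicate 2. Shares within a locus do not depend on that total.

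Of the 2095 loci, 1851 list 2 isoforms, 222 list 3 and 22 list 4. All 4456 lengths are multiples of 3, so these are coding lengths, and untranslated regions were not part of what was counted. Isoforms that differ only outside the coding sequence therefore have the same length. The isoforms of 624 loci (29.8%) are all of 1 length. In the other 1471 loci the longest and the shortest isoform differ by a median of 99 bases. The commonest difference is 3 bases, a single codon, found in 211 loci. Differences of 6 bases were found in 58 loci, of 9 bases in 49 loci and of 12 bases in 28 loci. The greatest difference is 1554 bases, and the greatest ratio of the longest to the shortest isoform is 1.61, in TRr0L7c033729.

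Equal length mostly went with equal estimates. Counts were found for 2078 of the 2095 loci, and 701 of these have at least 2 isoforms of the same length. In 679 of the 701 (96.9%) at least 1 pair of equally long isoforms had equal counts, within 0.1%, in every library. Over pairs of isoforms, 851 of 875 equally long pairs were equal. In 601 loci (28.9% of those with counts) no isoform differed from another in either length or count. Reads counted over coding sequence alone did not separate the isoforms of these loci, and each isoform was listed with an equal part of the locus. Their locus totals are not affected by this.

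TRr0L1c006986 has the highest mean TPM of this kind. Its 2 isoforms of 168 bases had 507, 256 and 1133 TPM each in replicates 1, 2 and 3. TRr0L4c022155 follows, with 2 isoforms of 732 bases at 595, 379 and 375 TPM each. By counts summed over the libraries TRr0L1c006986 was far lower, with 4519 against 49367 for TRr0L4c022155. TPM divides counts by effective length, which is small at 168 bases. TRr0L4c022189 lists 3 isoforms of 408 bases, each with 263, 179 and 30.9 TPM. TRr0L8c035893 lists 4 isoforms of 687 bases, each with 5.20, 2.31 and 3.56 TPM. These loci differed in level between libraries, but their isoforms stayed at an equal division. The loci with most counts whose lead held under 60% in every library are all of this kind, and besides TRr0L4c022155 they are TRr0L1c006437, TRr0L1c000859, TRr0L5c028144 and TRr0L2c011660.

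In the other 22 of the 701 loci no equally long pair was equal. TRr0L3c012845 has the highest mean TPM of the named loci among them, from 1695 counts summed over the libraries. Both of its isoforms have 168 bases. Isoform 2 had 475, 447 and 523 TPM, while isoform 1 had a count of 0 in each. At this length the limit for a count of 0, taken as 3 counts, was 2.21, 3.04 and 2.58 TPM, which covers counting error only. All reads of this locus were thus assigned to a single isoform in each library.

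Loci with several isoforms had higher levels than single-isoform loci. Summed over its isoforms, the median locus with several isoforms had 6.61, 4.72 and 6.29 TPM in replicates 1, 2 and 3, while the median single-isoform locus had 0.637, 0.515 and 1.02 TPM. This gave 5.87 ± 1.01 TPM for loci with several isoforms and 0.724 ± 0.264 TPM for single-isoform loci (SD, n = 3 libraries). The ratio of these medians was 10.4, 9.17 and 6.16 in the 3 libraries. The difference had the same sign in each library, and the exact permutation test by sign flips gave a two-sided p = 0.25, the smallest value that 3 libraries allow.

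The difference lay at the low end of the range. A summed TPM of at least 1 in every library was found for 1651 of 2095 loci with several isoforms (78.8%) and 16146 of 41608 single-isoform loci (38.8%), against 40.7% of all loci. No count in any library was found for 17 loci with several isoforms (0.811%) and 9345 single-isoform loci (22.5%). Among the 1884 loci with several isoforms and 20915 single-isoform loci with a mean of at least 1 TPM, the medians were close. They were 7.75, 5.67 and 7.40 TPM for loci with several isoforms and 7.27, 5.26 and 7.71 TPM for single-isoform loci, a ratio of 1.07, 1.08 and 0.959. At the high end, 56 loci with several isoforms (2.67%) and 1401 single-isoform loci (3.37%) had a mean of over 100 TPM. Whether expression in leaf entered the choice of gene models was not tested.

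**Figure D1:**
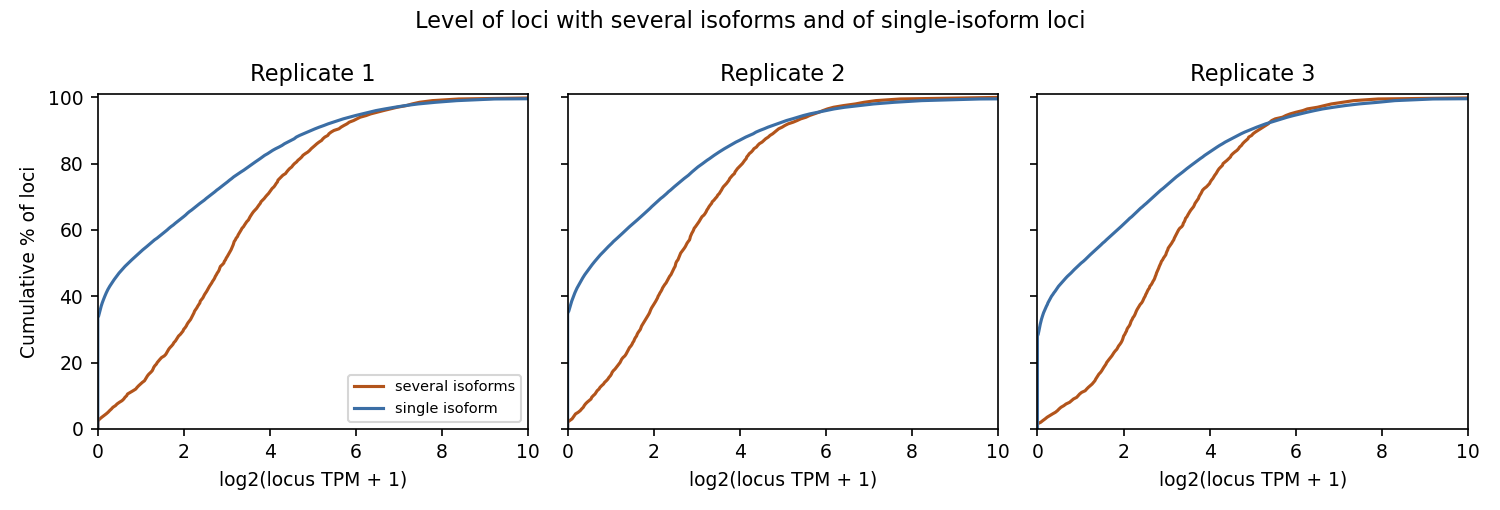
Cumulative percentage of loci (vertical axis) against log2(locus TPM + 1) (horizontal axis) in each of the 3 wild radish leaf libraries, for loci with several isoforms (orange) and single-isoform loci (blue). The curves are far apart at low levels, where single-isoform loci without a count lie, and meet at high levels.

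Over all loci, those without a count included, the difference was present in each class of coding length. The classes were not compared among loci with a mean of at least 1 TPM, where the medians above were close. The longest isoform of a locus with several isoforms had a median of 1239 bases, and the transcript of a single-isoform locus 1041 bases. Under 600 bases the median level was 16.8 ± 3.97 TPM in 251 loci with several isoforms and 0.346 ± 0.155 TPM in 10144 single-isoform loci. From 600 to under 1200 bases it was 7.33 ± 1.27 TPM in 753 loci with several isoforms and 1.05 ± 0.343 TPM in 14106 single-isoform loci. From 1200 to under 1800 bases it was 5.42 ± 0.920 TPM in 583 loci with several isoforms and 0.973 ± 0.324 TPM in 9023 single-isoform loci. At 1800 bases or more it was 3.28 ± 0.629 TPM in 508 loci with several isoforms and 0.521 ± 0.223 TPM in 8335 single-isoform loci (all SD, n = 3 libraries). The level of loci with several isoforms was highest in the shortest class, which for single-isoform loci was the lowest. TPM divides by effective length, so a short locus reaches a given TPM with fewer counts, and the classes were not compared by counts. From 600 bases upward the medians were lower in longer classes for both.

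Among the loci with several isoforms, the 601 whose isoforms were all equal had a median of 8.03, 6.14 and 7.75 TPM in replicates 1, 2 and 3. The 1471 loci with isoforms of unequal length had a median of 6.04, 4.45 and 5.98 TPM, lower in each library. The longest isoform had a median of 1116 bases in the equal loci and 1272 bases in the unequal ones. By number of isoforms, the median locus level was 5.95 ± 0.996 TPM with 2 isoforms, 5.09 ± 0.829 TPM with 3 and 5.18 ± 1.99 TPM with 4 (SD, n = 3 libraries), and these differences were not tested.

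An estimated count that is not whole shows that some reads of a transcript were divided, while a whole count does not show that none were. The tied isoforms of TRr0L5c028144 had whole counts of 3857 each in replicate 1. With a tolerance of 0.001 counts, 61.8%, 59.6% and 65.3% of the isoforms of loci with several isoforms had a count that was not whole, against 19.6%, 16.9% and 23.2% of single-isoform transcripts. Transcripts without a count are in these shares and count as whole. Among transcripts with a count in the library, the mean share over the libraries was 76.2% for isoforms of loci with several isoforms and 29.2% for single-isoform transcripts.

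The leading isoform of a locus, the one with the highest TPM in a library, was scored in the 1873 loci (89.4%) with at least 10 estimated counts in every library, and 222 loci were not scored. Isoforms within 0.1% of the highest TPM were taken as tied for the lead. A tie was found in every library in 562 scored loci and in 1 or 2 libraries in 24. The other 1287 loci had a single lead in each library, and they are called loci without a tie below.

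Over all 1873 scored loci the leading isoform held a median of 78.1%, 79.1% and 81.2% of locus TPM in replicates 1, 2 and 3. The ties at equal division lower this value. In the 1287 loci without a tie the median was 97.2%, 97.6% and 96.6% (97.1% ± 0.529, SD, n = 3 libraries), and the lower quartile 75.3%, 76.2% and 78.2%. The leading isoform held at least 90% of locus TPM in 775, 780 and 771 of these loci. It held at least 99.9% in 556, 574 and 522 loci. A lead of under 60% was found in 9.63%, 10.1% and 9.09% of them. Most loci without a tie were thus listed with at least 90% of TPM on 1 isoform in a given library. The median share was lower in deeper loci. It was 100% where the lowest library had 10 to 30 counts and 99.2% at 30 to 100. It was 94.9% at 100 to 300 counts, 95.5% at 300 to 1000 and 92.5% at 1000 or more. Taken from TPM averaged over the libraries, the median share was 90.6%. The distribution has 3 peaks, near 100%, at 50% and at 33.3%, the lower 2 of them made of ties.

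**Figure D2:**
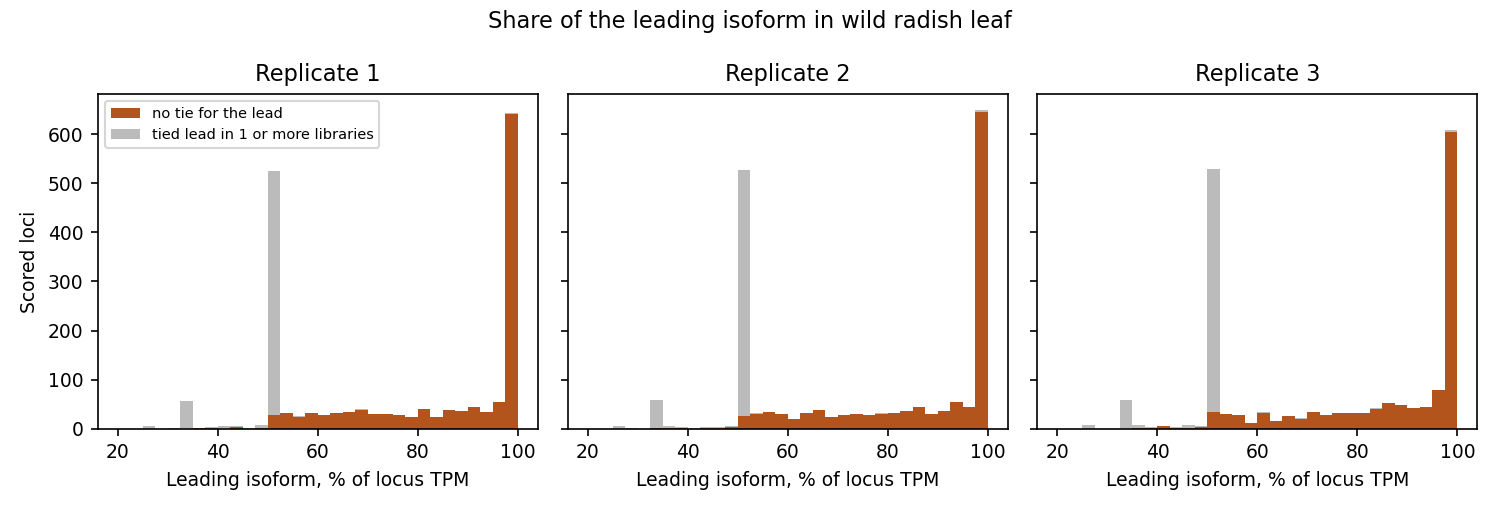
Number of scored loci (vertical axis) by the leading isoform's percentage of locus TPM (horizontal axis) in each of the 3 libraries, with loci without a tie in orange and loci tied in 1 or more libraries in grey, stacked. The tallest bar holds the loci with nearly all TPM on 1 isoform and the grey bar at 50% the ties of 2 isoforms.

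Loci with more isoforms had a lower leading share. Without a tie, the median share was 97.9% ± 0.647 in 1175 loci with 2 isoforms and 85.6% ± 0.710 in 105 loci with 3 isoforms (SD, n = 3 libraries). With 4 isoforms only 7 loci were without a tie, at 97.6%, 65.3% and 56.2% in replicates 1, 2 and 3.

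Isoforms without any count make up part of this dominance. In the scored loci, 300 of 3974 isoforms (7.55%), in 288 loci, had no count in any library although their locus had a median of 595 counts summed over the libraries, and up to 9403. Of these 300 isoforms, 234 were the shortest of their locus, 49 the longest and 6 of the same length as their partner.

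The 8 loci with the highest mean TPM include the ties of TRr0L1c006986, TRr0L4c022155 and TRr0L4c022189 described above. They also include TRr0L3c012845, described above, where only isoform 2 had counts. The other 4 also had a lead without a tie. TRr0L7c033885 had 2116, 1121 and 815 TPM in replicates 1, 2 and 3, or 1351 ± 680 TPM (SD, n = 3), the highest mean of the loci with several isoforms. Its isoform 2, of 720 bases, had 1928, 1032 and 688 TPM, and its isoform 1, of 732 bases, 188, 88.6 and 127 TPM. The shorter isoform thus held 91.1%, 92.1% and 84.4% of the locus. The level differed between libraries, while the order of the isoforms was the same in each.

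TRr0L7c033702 had 1555, 676 and 935 TPM on isoform 1, of 771 bases, and 64.2, 21.4 and 28.8 TPM on isoform 2, of 789 bases. Isoform 1 held 96.0%, 96.9% and 97.0% of the locus, a narrower range than in TRr0L7c033885. In TRr0L4c021274 the 498-base isoform 2 had 901, 275 and 219 TPM, and the 576-base isoform 1 had 18.4, 8.59 and 1.99 TPM. The 3 loci are led by their shorter isoform in each library.

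The next 3 loci were selected for a shortest isoform that led in every library, as those with the most counts after TRr0L7c033885 and TRr0L7c033702, so that their lead by the shortest is no finding. TRr0L9c041691 had 387, 238 and 69.7 TPM on its 1476-base isoform 1 and 1.65, 2.82 and 1.82 TPM on its 1560-base isoform 2. The level of the lead differed between libraries far more than that of the other isoform, and the leading share was 99.6%, 98.8% and 97.5%. TRr0L8c038139 had 51.7, 63.3 and 116 TPM on its 2496-base isoform 2 and 7.68, 3.02 and 13.3 TPM on its 2532-base isoform 1. TRr0L1c000081 kept the steadiest division of these, with its 1770-base isoform 1 at 76.7%, 75.8% and 75.7% while its level was 124, 110 and 31.1 TPM. Isoform 2 of TRr0L1c000081 is 6 bases longer.

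TRr0L6c032100 combined a large difference in length with a steady division. Its 258-base isoform 1 had 269, 230 and 152 TPM, and its 411-base isoform 2 had 135, 115 and 77.2 TPM, so that isoform 1 held 66.6%, 66.7% and 66.3% of locus TPM. By estimated counts, which are not divided by length, isoform 1 held 45.1%, 43.9% and 41.9%, with 95% Wilson intervals of 42.9% to 47.2%, 41.1% to 46.6% and 38.9% to 44.9%. The leading isoform of this locus therefore depends on the unit. This was rare, since the lead by counts was the lead by TPM in 98.2%, 97.8% and 99.1% of the loci without a tie.

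Over the 1287 loci without a tie, the longest isoform led in 66.4%, 65.7% and 70.3% and the shortest in 32.6%, 33.2% and 28.8%. With ties included, the longest, or an isoform as long as it, led in 76.0%, 75.8% and 78.9% of the scored loci. The isoform numbered 1 led in 50.9%, 49.0% and 50.7% of the loci without a tie, so the number in the identifier did not go with the lead. The same isoform led in all 3 libraries in 996 of the loci without a tie, and it was the longest in 710 of them, the shortest in 262 and of intermediate or the only length in 24.

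The length rank of the leading isoform moved with the difference in length. In the 184 scored 2-isoform loci without a tie whose isoforms differ by 3 bases, the longer isoform led in 42.9%, 42.4% and 43.5%, and it led in every library in 48 loci against 74 for the shorter. At a difference of 6 to 30 bases the longer led in 60.9% ± 1.12 of 186 loci, and at 33 to 99 bases in 58.0% ± 1.40 of 251 loci. At 102 to 297 bases it led in 84.5% ± 1.76 of 355 loci, and in every library in 269 against 30 for the shorter (SD, n = 3 libraries). At 300 bases or more it led in 78.1%, 78.6% and 91.4% of 187 loci, with replicate 3 above the others. The shorter isoform was the more frequent lead only in the class of a single codon, and there in each of the 3 libraries.

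The leading share and the agreement between libraries also differed between these classes. At a difference of 3 bases the median leading share was 85.0% ± 2.14, the lowest of the classes, and the same isoform led in every library in 122 of 184 loci (66.3%). At 102 to 297 bases the median share was 99.9% ± 0.247 (SD, n = 3 libraries) and the same isoform led in 299 of 355 loci (84.2%). At 300 bases or more the share was 97.5% ± 2.59 and the agreement 136 of 187 loci (72.7%), so neither rose over all the classes. The median of the lowest library's locus counts was 148 at 3 bases and 117 at 102 to 297 bases. Locus counts do not show how many reads separate the isoforms, and whether depth bears on these differences was not tested.

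**Figure D3:**
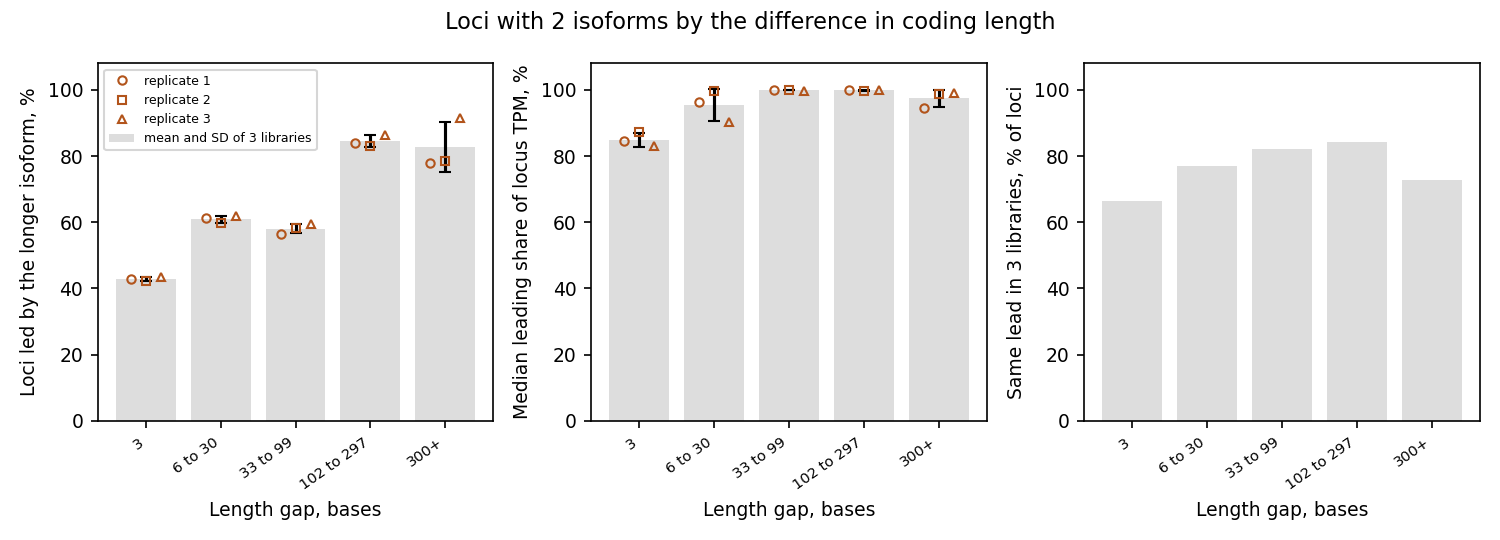
Loci with 2 isoforms and no tie by the difference in coding length of the isoforms (horizontal axis, bases): the percentage led by the longer isoform, the median leading share of locus TPM in percent, and the percentage of loci with the same lead in 3 libraries. Bars in the first and second panel are means with SD of 3 libraries and symbols the libraries, and the class of 3 bases is lowest in all 3 panels.

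By TPM, the 4 scored loci with the greatest length ratios were not led by their longest isoform. They do not stand for the class with a difference of 300 bases or more. There the longer isoform led in every library in 127 loci, against 9 for the shorter. The isoforms of TRr0L7c033729 have 870 and 1401 bases, and the shorter held 72.7%, 65.7% and 84.6% of TPM. In TRr0L2c008191 the 969-base isoform 2 held 63.8%, 69.7% and 100% over the 1446-base isoform 1, at a locus level of 6.45, 5.17 and 0.932 TPM. In TRr0L9c040432, with isoforms of 600, 438 and 675 bases, isoform 1 of intermediate length led with 5.05, 4.54 and 3.11 TPM. These 3 loci and TRr0L6c032100 have the 4 greatest length ratios of the scored loci.

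The leading isoform was the same in all 3 libraries in 1557 of 1873 scored loci (83.1%), ties counting as the same where the same isoforms were tied. In the loci without a tie it was the same in 996 of 1287 (77.4%). In pairs of libraries the lead agreed in 84.0% (replicates 1 and 2), 85.9% (1 and 3) and 84.5% (2 and 3). Of the 291 loci that did not agree, replicate 1 alone had another lead in 92, replicate 2 alone in 109 and replicate 3 alone in 85, and in 5 loci all 3 leads differed. No library stood out as the source of the disagreement.

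Depth went with agreement, but disagreement remained in the deepest loci. The same isoform led in every library in 64.1% of 128 loci whose lowest library had 10 to 30 counts, in 76.6% of 398 loci with 30 to 100 counts, in 79.2% of 452 loci with 100 to 300, in 79.5% of 254 loci with 300 to 1000, and in 89.1% of 55 loci with 1000 or more. A locus was called reversed where it has 2 isoforms and the 95% Wilson interval of the share of isoform 1 in locus counts lay above 50% in a library and below 50% in another. Of the 1175 scored 2-isoform loci without a tie, 160 were reversed, or 13.6%. The interval covers counting error only and treats estimated counts as reads, and reads that Kallisto divided add error that it does not cover. The pairs of libraries gave 103 (1 and 2), 95 (1 and 3) and 93 (2 and 3) reversed loci.

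The share of reversed loci was lower at greater depth. It was 23.9% (28 of 117) at 10 to 30 counts and 9.62% (5 of 52) at 1000 counts or more. By difference in length it was 23.9% (44 of 184) at 3 bases, 15.6% (29 of 186) at 6 to 30 bases, 12.4% (31 of 251) at 33 to 99 bases, 9.01% (32 of 355) at 102 to 297 bases and 12.8% (24 of 187) at 300 bases or more. Over the same 1175 loci the share of isoform 1 had a median range of 11.3 percentage points between libraries. The range was under 5 points in 431 loci (36.7%) and over 50 points in 162 (13.8%). In 47 loci (4.0%) isoform 1 had at most 10% in a library and at least 90% in another. Across these loci, which share the libraries, Pearson's r of the share was 0.803 (1 and 2), 0.821 (1 and 3) and 0.797 (2 and 3), given as a description.

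**Figure D4:**
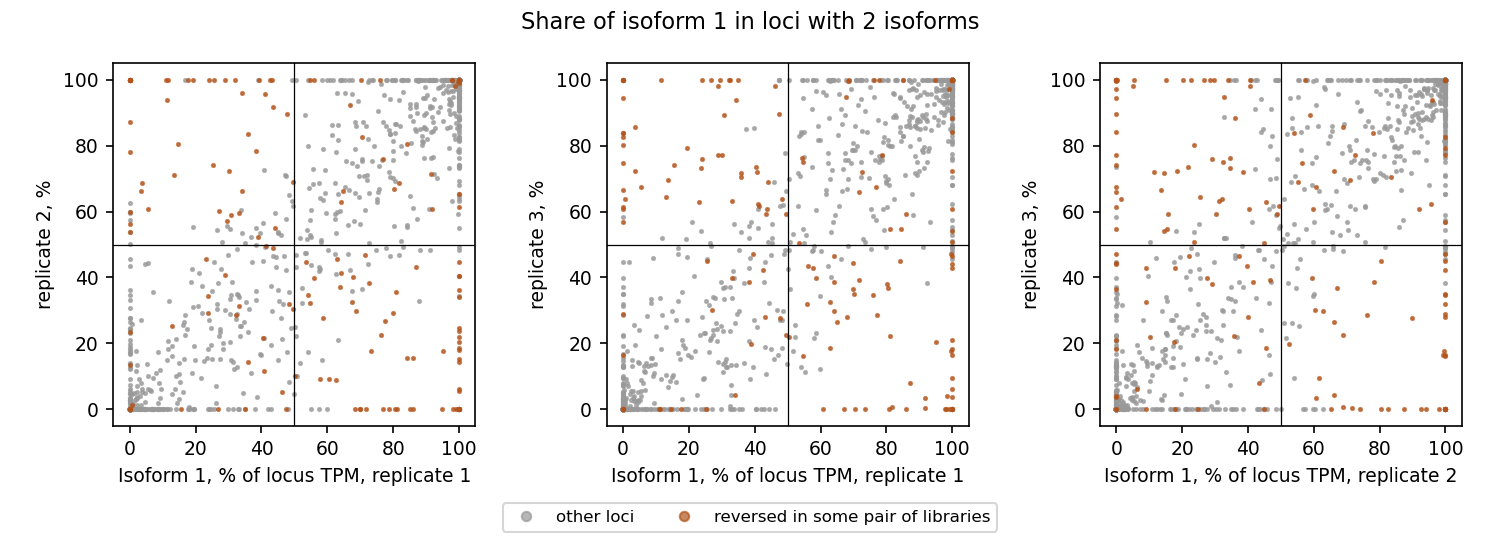
Isoform 1 as a percentage of locus TPM in pairs of libraries (both axes) for the 1175 scored 2-isoform loci without a tie. Each point is a locus, and the 160 reversed between some pair of libraries are orange. Points gather in the corners of agreement, while others lie in the corners where the isoforms changed places.

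The loci with the most counts among those that disagreed show the range of this. TRr0L3c012274 had 133, 92.8 and 0.865 TPM on its 999-base isoform 1 and 29.7, 42.1 and 128 TPM on its 1134-base isoform 2. Isoform 1 held 81.8%, 68.8% and 0.671% of a locus level that was 163, 135 and 129 TPM. By counts isoform 1 had 79.4% (95% Wilson interval 78.3% to 80.6%), 65.3% (63.7% to 67.0%) and 0.572% (0.390% to 0.835%). The locus total thus differed little between libraries while the isoforms changed places in replicate 3.

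TRr0L3c013148, the longest of these loci, had 1.57, 4.09 and 18.4 TPM on its 6621-base isoform 1 and 5.02, 9.94 and 5.83 TPM on its 6021-base isoform 2. Isoform 1 was the lower in replicates 1 and 2 and the higher in replicate 3. Isoform 1 of TRr0L9c040892 (768 bases, against 765 for isoform 2) held 54.2%, 34.5% and 76.3% of TPM at a locus level of 175, 62.1 and 9.78 TPM. In this locus the division and the level both differed between libraries.

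The other 3 of these loci each had a nearly equal division in a library. TRr0L9c041261, with isoforms of 1419 and 1416 bases, had 53.4%, 44.7% and 50.5% on isoform 1. Isoform 2 thus led in replicate 2, while the nearly equal division was in replicate 3. Its locus level was 40.3, 60.9 and 88.7 TPM. TRr0L4c018060, with 1026 and 1023 bases, had 49.5%, 61.6% and 66.2% on isoform 1, and by counts the interval in replicate 1 was 47.8% to 51.3%, so this locus was not reversed past counting error. TRr0L5c026974 had 28.1%, 50.8% and 26.1% of TPM on its 1551-base isoform 1, but by counts its 2010-base isoform 2 had the larger share in each library, and it was not reversed either.

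Some loci were listed with a full or nearly full exchange of their isoforms. The following 4 were chosen after their values were seen, to show the extreme, and their difference is a description. TRr0L3c013786 had 21.3, 0 and 18.7 TPM on its 837-base isoform 1 and 0, 12.1 and 0 TPM on its 840-base isoform 2. In counts this was 492, 0 and 446 for isoform 1 against 0, 218 and 0 for isoform 2. The limit that a count of 0 allows was 0.167 TPM for isoform 1 in replicate 2. Replicate 2 was thus listed with only the isoform that had a count of 0 in the other libraries. The limit covers counting error only, and not the division of reads between isoforms so close in length.

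TRr0L6c031227 had 593, 0 and 139 counts on its 1020-base isoform 1 and 0, 196 and 632 counts on its 1026-base isoform 2, with counts on both isoforms only in replicate 3. TRr0L5c024921 had 100%, 61.4% and 9.55% of TPM on its 1263-base isoform 1, at a locus level of 12.6, 5.72 and 28.9 TPM. TRr0L9c041702 had 7.98 and 3.37 TPM on its 2247-base isoform 1 in replicates 2 and 3, where its 2217-base isoform 2 had 0 and 0.702 TPM, while in replicate 1 isoform 2 had 10.5 TPM and isoform 1 had practically none. In each of these 3 loci a library listed with both isoforms lay beside a library listed with a single isoform.

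**Figure D5:**
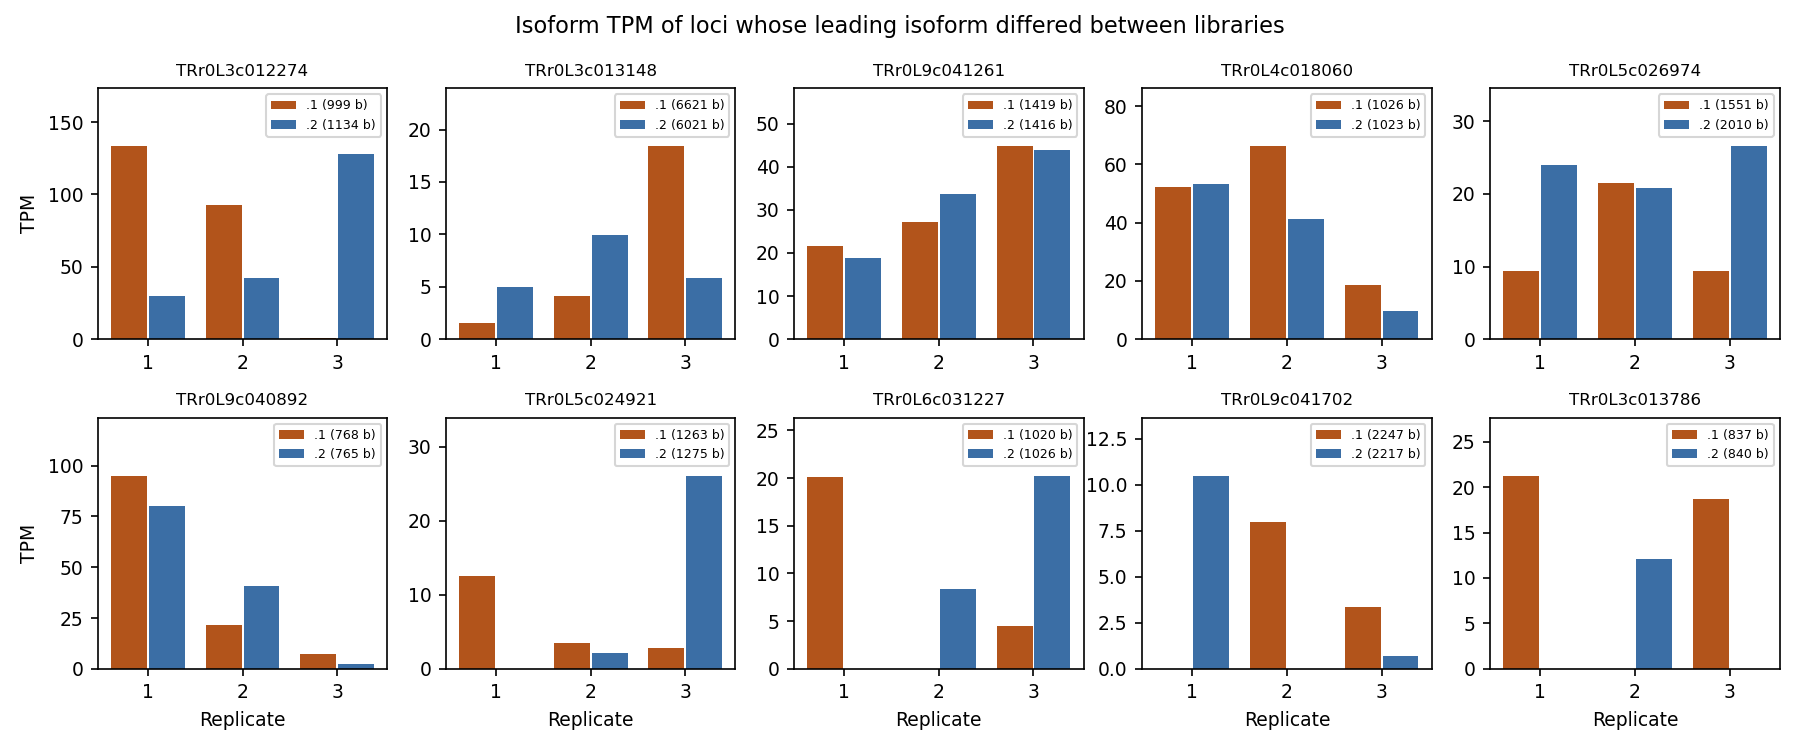
TPM (vertical axis, from 0, scaled per panel) of isoform 1 (orange) and isoform 2 (blue) in replicates 1, 2 and 3 for the 6 loci with the most counts among those with differing leads and 4 loci with a full or nearly full exchange. Coding lengths are in the legends, and TRr0L3c012274 and TRr0L3c013786 show the change of place most clearly.

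Loci with 3 or 4 isoforms showed both ties and exchanges. The same lead in every library was found in 76 of 105 loci with 3 isoforms without a tie (72.4%) and in 3 of 7 with 4 (42.9%), against 917 of 1175 with 2 (78.0%). TRr0L4c023137, the most abundant locus with 4 isoforms, has 2 isoforms of 483 bases with 24.9, 12.5 and 17.0 TPM each and 2 of 480 bases with 15.8, 8.40 and 18.6 TPM each. The pair of 483 bases led in replicates 1 and 2 and the pair of 480 bases in replicate 3. In TRr0L1c004166 the 282-base isoform 1 had all of the locus in replicates 1 and 2, with 37.7 and 27.8 TPM, but 32.8% of it in replicate 3. The 3 isoforms of 297 bases had counts only in replicate 3, with 9.51, 29.9 and 9.51 TPM.

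TRr0L3c013557 has 4 isoforms of 1191 to 1203 bases, of which isoform 1 had 6.73, 2.86 and 19.7 TPM and isoform 3 had 5.95, 8.89 and 9.88 TPM. Isoform 1 led in replicates 1 and 3 and isoform 3 in replicate 2. TRr0L4c018521 divided its level over isoforms 2, 3 and 4, of 696 to 705 bases, with 7.72 to 10.1 TPM in replicate 1, 4.67 to 4.92 TPM in replicate 2 and 6.64 to 8.85 TPM in replicate 3. Isoform 4 was the lowest of the 3 in replicates 1 and 3 and the highest in replicate 2. The 513-base isoform 1 had no count in any library.

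A steady and nearly equal division without a tie was rare. Of the 996 loci without a tie that kept their lead, 5 had under 60% on the lead in every library. TRr0L1c002231 had 54.8%, 57.5% and 54.9% on its 531-base isoform 1, over a 522-base isoform 2, at 54.7, 36.2 and 10.5 TPM for the locus. TRr0L5c027069 had 51.8%, 52.0% and 53.2% on its 1647-base isoform 1, whose partner has 1197 bases. TRr0L2c010831 had 55.0%, 52.2% and 50.4% on its 1677-base isoform 1, 3 bases shorter than isoform 2. TRr0L3c012640 and TRr0L6c029657 are the other 2, and in both a pair of tied isoforms shares what the lead leaves. These 5 were picked out after ties had been seen to fill the lowest shares.

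Isoforms varied more between libraries than their summed loci. Among features with a mean of at least 1 TPM, the median SD of log2(TPM + 1) over the libraries was 0.58 for 2901 isoforms of loci with several isoforms, 0.53 for 1884 summed loci with several isoforms, and 0.65 for 20915 single-isoform transcripts. In the loci without a tie it was 0.63 for 1719 isoforms and 0.51 for the 1239 loci they add up to. Isoforms tied in every library had 0.47 (n = 1053). With no minimum on TPM the order turned, to 0.43 for isoforms and 0.50 for summed loci of loci with several isoforms, and 0.32 for single-isoform transcripts, many of them at or near 0.

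Within classes of mean level, summed loci with several isoforms had a lower median SD than single-isoform loci. The median SD at 1 to 3 TPM was 0.47 in 377 loci with several isoforms and 0.61 in 5131 single-isoform loci, and at 3 to 10 TPM 0.48 in 755 and 0.60 in 6991. At 10 to 30 TPM it was 0.58 in 482 loci with several isoforms and 0.64 in 4777 single-isoform loci, and at 30 to 100 TPM 0.70 in 214 and 0.74 in 2615. At 100 TPM or more it was 0.66 in 56 loci with several isoforms and 0.87 in 1401 single-isoform loci. The order was the same in all 5 classes, over the same 3 libraries. The class of 100 TPM or more has no upper bound and is not matched in level. The highest mean was 20427 TPM for single-isoform loci and 1351 TPM for loci with several isoforms. The windows picked as high in replicate 2 were not left out of any of these SDs. They hold 1303 transcripts, of which only 5 belong to loci with several isoforms, so they bear almost wholly on the single-isoform loci. The comparison without them was not made. Across isoforms, Pearson's r of log2(TPM + 1) was 0.826 between replicates 1 and 2, 0.639 between 1 and 3 and 0.662 between 2 and 3, and across single-isoform transcripts 0.844, 0.707 and 0.734, so that replicate 3 stood apart in level. In the agreement of leading isoforms it did not.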

How the data were processed

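The 3 *R*. *raphanistrum* leaf RNA-seq libraries were used, and the 7 MethylC-seq samples were not analysed here. The authors trimmed reads with Trimmomatic 0.33 and quantified each library on its own with Kallisto 0.50.0. The kit was stranded. The transcriptome version and Kallisto's strand setting were not given in the sources used here. Per transcript, the deposited tables give the estimated count (expected count, not normalized, used unrounded) and TPM, which the authors' tool scales by effective length to the same total per library. Length and effective length differed by a median of 176, 199 and 220 bases in replicates 1, 2 and 3.

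Isoform TPM and counts were summed per locus. Scored loci had at least 10 counts in every library, leads within 0.1% of the highest TPM were ties, and logs used a pseudocount of 1. At the median effective length, 3 counts correspond to 0.0863, 0.110 and 0.0816 TPM. Intervals are 95% Wilson intervals. Values are mean ± SD of 3 libraries, and no test across genes was run, since there is no contrast. Loci were named by rule: the 8 highest in mean TPM, the 5 highest of those with 4 isoforms, the 6 with most counts among differing leads, the 5 with most counts led by the shortest isoform, the 5 with most counts among agreeing leads under 60%, and the 4 with the greatest length ratio. Length not a multiple of 3 named no member. The members and lists were chosen with earlier results of these data known.

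The scoring code was tested on simulated pairs of equally long isoforms, with counts drawn without reads shared between them. This could not test leads or reversals that come from Kallisto's division of reads. Alternatives were the count minimum, the unit, thinning to equal depth, scaling by edgeR 4.0.16 and DESeq2 1.42.0 factors, the pseudocount, filters, and leaving out each library. Scripts ran under Python 3.11.15 with pandas 2.3.3, scipy 1.17.1 and numpy 2.4.6, and under R 4.3.3 for the factors.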

Additional observations from a re-analysis of the deposited data

How the results depend on the processing

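Of 133 values under alternative settings, 71 stayed within the SD between libraries, within the 95% interval over loci where a result has a single value over all libraries, or within 1.5 times of a count. The other 62 moved beyond it. The values cannot be negative, so a change of sign was not possible. The median leading share, 79.5% over all scored loci, was 75.1% at 100 counts or more, 82.6% for 2 isoforms only, 73.9% from mean TPM and 97.1% without ties. Without ties it was 97.8% with no count minimum, 94.95% at 100 counts, 97.9% for 2 isoforms and 90.6% from mean TPM. The share led by the longest isoform, 76.9%, was 67.5% without ties and 67.1% with shared greatest lengths left out. Agreement, 83.1%, was 84.8% by counts, 85.6% at 100 counts, 77.4% without ties and 53.3% after thinning, which breaks ties by its construction. Agreement without ties, 77.4%, was 79.7% by counts and 80.0% at 100 counts. Reversed loci numbered 76 at 100 counts, where fewer loci are scored, and 144 with 99% intervals. The median level was 10.1 as CPM and 6.94 TPM at a mean of at least 1 TPM for loci with several isoforms, and 6.75 TPM at that minimum for single-isoform loci. The ratio was 11.0 as CPM and 1.03 at that minimum. Detection was 93.6% at 0.1 TPM and 95.9% at 1 count for loci with several isoforms, and 53.2% and 58.3% for single-isoform loci. The median SD was 0.71 for isoforms, 0.62 for summed loci and 0.78 for single-isoform transcripts with a pseudocount of 0.1, 0.43, 0.50 and 0.32 with no filter, where single-isoform transcripts become the lowest, 0.55 for summed loci as CPM, and 0.63 for isoforms without ties. Counts off by more than 0.1 were 51.8% for isoforms of loci with several isoforms and 15.6% for single-isoform transcripts. Restricting to transcripts with a count, chosen after seeing the data, gave 76.2% and 29.2%.

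Leaving out each library in turn gave leading shares of 78.6% to 80.0% (96.9% to 97.4% without ties), a longest lead in 75.9% to 77.4% (66.0% to 68.1%) and agreement of 87.8% to 88.8% (83.7% to 85.2%), higher because 2 libraries agree more easily than 3. It gave 93 to 103 reversed loci, also because fewer pairs remain. The median level was 5.51 to 6.45 TPM for loci with several isoforms and 0.576 to 0.829 TPM for single-isoform loci, with ratios of 7.67 to 9.77. Detection was 80.7% to 83.2% and 40.8% to 42.3%. The SD was 0.38 to 0.50 for isoforms, 0.36 to 0.47 for summed loci and 0.42 to 0.61 for single-isoform transcripts. Counts that are not whole were 60.7% to 63.6% and 18.2% to 21.4%. No paired analysis was possible because replicate numbers are shared only with the other species, which has other transcripts, and groups of samples were not tested against each other. The sign-flip test sets 2 classes of loci against each other within each library.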

Other observations

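The identifiers carry tags L1 to L9, taken here as labels of the gene set only. The share of loci with several isoforms was 6.19% for L2 and 6.14% for L5, the highest, and 3.17% for L8, the lowest, with 5.10% for L7, 4.80% for L1, 4.57% for L4, 4.55% for L6, 4.20% for L9 and 3.99% for L3. The 33 loci with a scaffold tag held 0 loci with several isoforms. Among loci without a tie, the same isoform led in every library in 71.9% (L9) to 82.6% (L7). No test was run on these differences.

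Dominance by a single isoform and agreement between libraries did not coincide fully. In 284 loci without a tie the lead held at least 99.9% of locus TPM in every library, and in 271 of these it was the same isoform throughout, so 13 loci were listed with nearly all TPM on 1 isoform in each library but on different isoforms. TRr0L3c013786, described above, is among them.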
